A study of Mus musculus with 36 samples.

Results

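The genes described here encode dystrophin and proteins of the dystrophin complex. They are 8 of the 49943 genes that the RefSeq annotation of GRCm38 places on chromosomes 1 to 19, X and Y: dystrophin itself (Dmd), its autosomal homologue utrophin (Utrn), dystroglycan (Dag1), the sarcoglycans Sgcd and Sgcz, the dystrobrevin Dtna and the syntrophins Sntg1 and Sntb1. They were listed by symbol, and the list was selected on these data with their single-strand break (SSB) densities by tissue known, so that SSB levels by tissue are described without a test. DNA lesions were counted over the full span of a gene, exons and introns together.

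Dystrophin lies under the membrane of muscle fibres and neurons and ties the actin cytoskeleton to dystroglycan, which in turn binds laminin and other matrix proteins outside the cell. Sarcoglycans flank dystroglycan in the membrane, whereas dystrobrevins and syntrophins are cytoplasmic adaptors that bind dystrophin and recruit channels and signalling proteins. Loss of dystrophin causes Duchenne muscular dystrophy, loss of delta-sarcoglycan a limb-girdle muscular dystrophy with heart disease, and utrophin can replace part of the function of dystrophin. SSBs and abasic (AP) sites, where the sugar of a nucleotide has lost its base, are among the most common lesions of DNA, and AP sites arise both spontaneously and as intermediates of base excision repair.

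The members are long genes, and their levels are therefore given per length. Dmd (gene ID 13405) spans chrX:82814664-85205050, 2390.4 kb, and only 2 annotated genes are longer. Of the autosomal members, Sgcz (244431) spans chr8:37517840-38661705, Sgcd (24052) chr11:46971077-47989451 and Sntg1 (71096) chr1:8359739-9301657. Utrn (22288) lies at chr10:12382187-12869888, Dtna (13527) at chr18:23310006-23659719 and Sntb1 (20649) at chr15:55636388-55907302. Dag1 (13138), at chr9:108204861-108263977, is the short member with 59.117 kb. Other genes overlap at most 1.53% of a member's span, in Sgcz, which holds Mir383 and whose upper end is crossed by Gm40493. In Dmd they overlap 0.661%, and 7 genes are nested there, among them Tsga8. Lesions in these stretches were counted for both genes.

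The samples were DNA of 6 tissues (brain, heart, liver, bone marrow, motile sperm of the epididymal tail and mononuclear cells of peripheral blood, PBMCs) of male C57BL/6J mice of 24 months, untreated as far as the labels tell. Each tissue had 2 samples, each profiled for SSBs with SSiNGLe and for AP sites with SSiNGLe-AP, which gave 24 libraries, 12 per lesion. The labels name 2 mice as the source of all tissues, so tissues are not independent animals, and they give sperm DNA a purification kit of its own, which cannot be told apart from the tissue. A lesion is a genomic position, counted once per library. Libraries held 225011 to 1041983 SSB positions and 460719 to 963258 AP positions, and AP values rest on more lesions in all. The list took 8309 of 5518789 SSBs (0.151%) and 13134 of 8824020 AP sites (0.149%), with 6 to 382 SSBs and 11 to 359 AP sites per gene and library. Density is given as LPKM, the lesions of a gene divided by its length in bases and by the positions of the library, times 1e+09. Tissue labels could not be checked against marker genes, because lesions hold no expression values.

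Promoter sequence and gene direction came from a promoter annotation (GRCm38.p6) that lists 4 members. These were Dmd on the plus strand and Utrn, Sgcd and Dag1 on the minus strand. For each, the 250 bases before the listed start with the most lesions are shown 5′ to 3′, because they show at which nucleotides the lesions of all 24 libraries lay. Capitals mark these nucleotides, on whichever strand the lesion was recorded. These starts lie within the gene spans, so longer transcripts can cross the windows of Sgcd, Dmd and Utrn. The window of Dag1 lies mostly beyond its span, which ends at 108263977. All its marked nucleotides lie outside the span and are not part of the LPKM of Dag1. In order, the windows are chr11:47379326-47379575 (minus strand), chr9:108263959-108264208 (minus), chrX:82948620-82948869 (plus) and chr10:12861736-12861985 (minus).
Sgcd: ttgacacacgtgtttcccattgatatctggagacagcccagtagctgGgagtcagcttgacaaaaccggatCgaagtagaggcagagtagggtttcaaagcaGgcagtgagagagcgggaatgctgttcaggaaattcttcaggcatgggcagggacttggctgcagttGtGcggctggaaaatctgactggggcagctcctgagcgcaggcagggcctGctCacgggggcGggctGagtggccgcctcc
Dag1: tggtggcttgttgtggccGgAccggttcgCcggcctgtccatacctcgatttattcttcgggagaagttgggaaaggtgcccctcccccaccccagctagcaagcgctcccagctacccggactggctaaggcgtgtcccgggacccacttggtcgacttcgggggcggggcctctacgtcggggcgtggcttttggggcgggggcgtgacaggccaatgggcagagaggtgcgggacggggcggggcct
Dmd: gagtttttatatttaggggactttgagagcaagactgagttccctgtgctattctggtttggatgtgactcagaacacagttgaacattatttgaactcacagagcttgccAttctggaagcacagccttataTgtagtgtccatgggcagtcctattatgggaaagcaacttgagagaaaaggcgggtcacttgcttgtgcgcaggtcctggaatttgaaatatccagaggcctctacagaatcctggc
Utrn: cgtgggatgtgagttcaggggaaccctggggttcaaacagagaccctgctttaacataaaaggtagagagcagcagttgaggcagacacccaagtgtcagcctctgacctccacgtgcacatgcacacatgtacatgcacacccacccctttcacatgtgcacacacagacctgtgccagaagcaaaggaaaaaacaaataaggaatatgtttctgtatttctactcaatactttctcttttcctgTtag

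The window of Sgcd held 2 SSBs in 2 libraries and 7 AP sites in 6 libraries. Such windows of all genes with a listed start, which can overlap, numbered 32851. Their median was 1 SSB and 1 AP site, and 1.52% held at least 7 AP sites while 42.7% held at least 2 SSBs. The last bases before the Sgcd start were the densest, with AP sites 31, 28, 19 and 14 bases before it, in sperm, liver, bone marrow and heart. The windows of Dag1 held 2 SSBs and 1 AP site, of Dmd 2 AP sites and of Utrn 1 SSB, which lay 4 bases before the start. A further Dmd start, with the window chrX:85048045-85048294, had 1 SSB, and a further Dag1 start, with the window chr9:108263816-108264065, had no lesion. Over all windows, 38.7% of the bases at AP positions were A and 36.1% G, against 23.4% and 26.6% of all bases, and the base before an SSB was C in 55.3%, both read on the strand given in the file. Whether the files name the damaged nucleotide or its neighbour is not given in the sources used here.

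Averaged over the 12 SSB libraries, LPKM was 0.102 ± 0.0200 (SD, n = 12) in Dmd, 0.121 ± 0.0277 in Sntg1 and 0.194 ± 0.0389 in Sgcz, and these were the sparse members. Sgcd had 0.344 ± 0.0448 and Sntb1 0.434 ± 0.0752. The dense members were Dtna (0.462 ± 0.0637), Dag1 (0.485 ± 0.129) and Utrn (0.515 ± 0.0628). Utrn thus had a far higher LPKM-SSB than its homologue Dmd. LPKM is not scaled to gene copies per cell, and Dmd lies on the X chromosome of male mice. The part of copy number in this gap was not tested. Low values like that of Dmd were shared by long genes of its chromosome, and the reason was not tested: the median of 53 genes of at least 200 kb on chromosome X was 0.111, and Dmd exceeded 41.5% of them, whereas the median of all 1069 genes of that length was 0.453. Sntg1 and Sgcz are autosomal and still exceeded only 3.27% and 8.04% of genes of at least 200 kb. AP densities put the members in nearly the same order, from 0.1002 ± 0.0147 in Dmd, 0.132 ± 0.0148 in Sntg1 and 0.185 ± 0.0225 in Sgcz to 0.469 ± 0.0448 in Utrn and 0.504 ± 0.0974 in Dag1.

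**Figure D1:**
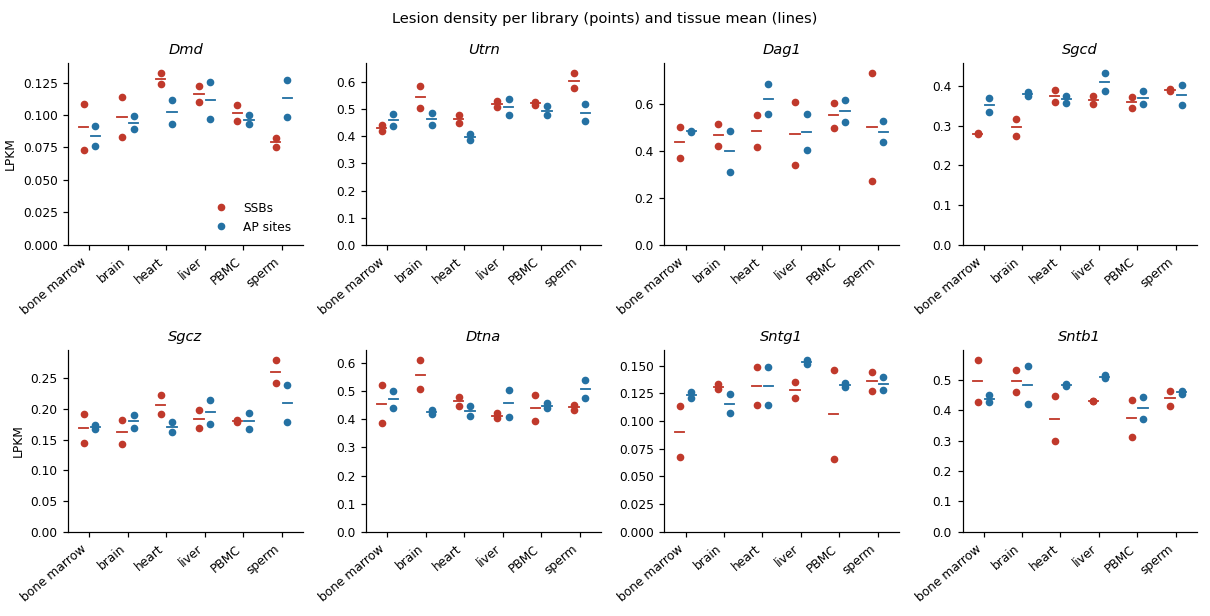
LPKM (lesions per base and library position times 1e+09, linear axes from 0, each gene with its own scale) of the 8 genes in each library, red for SSBs and blue for AP sites, with a line at the mean of the 2 libraries of a tissue. Heart held the highest SSB values of Dmd (0.132 and 0.124) and sperm the highest of Sgcz (0.242 and 0.279), while Dag1, with few lesions, spread from 0.271 to 0.728 within sperm.

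SSBs of Dmd were most dense in heart and least dense in sperm, whereas those of Utrn, Sgcd, Sgcz and Sntg1 were most dense in sperm. These tissue patterns are the values the list was chosen on. In Dmd, LPKM-SSB of replicates 1 and 2, in that order here and in what follows, was 0.132 and 0.124 in heart, 0.110 and 0.122 in liver, 0.108 and 0.0958 in PBMCs, 0.0833 and 0.114 in brain, 0.0730 and 0.108 in bone marrow and 0.0826 and 0.0751 in sperm. Both heart libraries thus lay above all others, both sperm libraries below all but bone marrow replicate 1, and the libraries of PBMCs, brain and bone marrow overlapped. The mean of heart was 1.63 times that of sperm (1.55 to 1.71 when a library of heart or sperm was left out). Without bone marrow replicate 2, bone marrow was the lowest instead, with heart at 1.76 times its value.

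The sarcoglycans had their highest SSB density in sperm. In Sgcz, LPKM-SSB was 0.242 and 0.279 in sperm, 0.192 and 0.222 in heart, 0.169 and 0.199 in liver, 0.179 and 0.183 in PBMCs, 0.145 and 0.193 in bone marrow and 0.143 and 0.182 in brain. Both sperm libraries stood above every other library, and the remaining tissues overlapped with their neighbours in this order. In Sgcd, the values were 0.388 and 0.391 in sperm, 0.389 and 0.360 in heart, 0.354 and 0.374 in liver, 0.345 and 0.372 in PBMCs, 0.274 and 0.318 in brain and 0.280 and 0.279 in bone marrow. Here bone marrow and brain stood below the other tissues, each of which overlapped with the next in this order.

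In Utrn, LPKM-SSB was 0.580 and 0.633 in sperm, 0.505 and 0.586 in brain, 0.529 and 0.516 in PBMCs, 0.510 and 0.532 in liver, 0.478 and 0.451 in heart and 0.420 and 0.443 in bone marrow, so that heart, the highest tissue of Dmd, was second to last. Of the adaptors, Dtna had its highest mean in brain (0.559 ± 0.0715, n = 2) and its lowest in liver (0.413 ± 0.0124). Sntb1 ranged from 0.372 ± 0.105 in heart to 0.496 ± 0.0520 in brain, and Sntg1 from 0.0904 ± 0.0325 in bone marrow to 0.136 ± 0.0123 in sperm. The tissues of these 2 syntrophins overlapped with their neighbours throughout. Dag1 overlapped throughout as well: sperm replicate 1 held 6 SSBs, an LPKM of 0.271 with an exact Poisson 95% interval of 0.0993 to 0.589, which covers counting error only. Over all genes, edgeR's quasi-likelihood F test over the tissues called 48 of 38486 genes (0.125%), a background figure only: the list was selected on this contrast, and the members' own calls in it are not used.

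Because Dmd is X-linked, its density was also scaled to its chromosome. Chromosome X held 1.32% and 1.38% of the SSBs in sperm against 1.57% to 1.83% in the other tissues, while its share of AP sites was 1.58% to 1.83% in all of them. Of the X-linked SSBs, Dmd held 1.73% and 1.62% in heart, 1.48% and 1.66% in liver, 1.49% and 1.30% in sperm, 1.49% and 1.28% in PBMCs, 1.11% and 1.52% in bone marrow and 1.10% and 1.49% in brain. Heart kept the highest mean, but sperm moved from the last place to the third, brain became the lowest and the ratio of highest to lowest mean fell from 1.63 to 1.29. For the autosomal members, scaling to all autosomes left the ratios nearly as they were (1.61 and 1.60 for Sgcz).

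**Figure D2:**
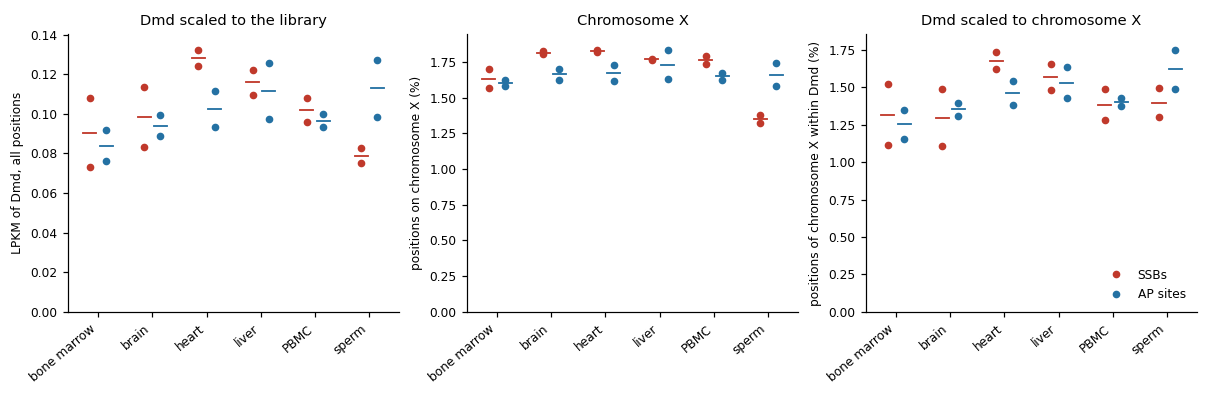
Dmd per library, red for SSBs and blue for AP sites with lines at tissue means: LPKM (left), the percent of positions on chromosome X (middle) and the percent of X-linked positions within Dmd (right). The 2 sperm libraries stand apart in the middle panel for SSBs, at 1.32% and 1.38%, and not for AP sites, and in the right panel the SSB values of sperm (1.49% and 1.30%) lie within the range of the other tissues.

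The AP sites of the members did not pass a test across tissues. edgeR's quasi-likelihood F test called 0 of 41374 genes (0% of those tested) for AP sites, 1219 genes had an unadjusted p under 0.05 and DESeq2 also called 0. The adjusted p was 1 for each member, and the smallest unadjusted p among them was 0.0264, for Dmd. In Dmd, LPKM-AP was 0.0986 and 0.127 in sperm, 0.125 and 0.0972 in liver, 0.0933 and 0.112 in heart, 0.0997 and 0.0933 in PBMCs, 0.0889 and 0.0992 in brain and 0.0764 and 0.0916 in bone marrow. Each tissue overlapped with the next in this order, and sperm, lowest for SSBs, had the highest mean. The share of X-linked AP sites within Dmd ran from 1.25% ± 0.138 (SD, n = 2) in bone marrow to 1.62% ± 0.181 in sperm, and a one-sided exact permutation test of the F statistic over 10395 arrangements of the libraries gave p = 0.166 (F = 2.19, smallest p possible 9.62e-05). In the other members, the highest tissue mean of LPKM-AP divided by the lowest was 1.17 in Sgcd, 1.19 in Dtna, 1.23 in Sgcz, 1.25 in Sntb1, 1.28 in Utrn, 1.32 in Sntg1 and 1.56 in Dag1.

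SSBs and AP sites were then compared within samples, since the labels say that both were mapped in the same one. No member was called, while over all genes 173 of 41210 passed (0.420%), 108 with more SSBs and 65 with fewer, relative to the library totals. The log2 ratio of SSB to AP density was 0.14 (SE 0.062) in Utrn and -0.13 (SE 0.054) in Sgcd, with adjusted p of 0.433 and 0.418 in edgeR's quasi-likelihood fit. In the other members it lay between -0.11 (Sntg1) and 0.08 (Sgcz), and the 95% intervals of the 7 longer members stayed between -0.27 and 0.26. For Dag1, with fewer lesions, the interval was -0.39 to 0.23.

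The strands differed in Utrn for SSBs and in Dmd for AP sites. Each lesion carries a strand in the files. A lesion on the strand opposite to the gene's direction is called template here, taking the file's strand as that of the lesion, which the sources used here do not state, and the names swap if it is not. Of the 1372 SSBs of Utrn, 573 were on the template strand. The share per library had its lowest value at 36.4%, its median at 41.6% and its highest at 46.2%, and was below 50% in 12 of 12 libraries. The log2 ratio of template to non-template SSBs was -0.48 (SE 0.081, adjusted p = 2.36e-06, edgeR's quasi-likelihood test with the library as a block). SSBs were fewer on the template strand in the genome as a whole: the median over all genes of known direction was -0.19, and 803 of 17687 such genes (4.54%) were called in that direction against 23 in the other. Scaling each strand's columns by TMM moved that median to -0.06 and left Utrn at -0.34 (adjusted p = 0.00321), whereas with DESeq2 the median was -0.03 and Utrn missed the threshold at -0.32 (adjusted p = 0.0704).

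The AP sites of Utrn were near balance, with template shares of 42.6% to 57.0% (median 49.6%) and a log2 ratio of -0.04 (SE 0.067, adjusted p = 0.938). Those of Dmd were not: 924 of 2092 lay on the template strand, with a lowest share of 37.8%, a median of 45.0% and a highest of 48.6%, below 50% in 12 of 12 libraries. The log2 ratio was -0.34 (SE 0.065, adjusted p = 0.00324), in a comparison that called only 24 of 26743 genes (0.0897%) and, of genes of known direction, 17 of 20203 with fewer on the template strand (0.0841%), at a median of -0.02. The call passed in 17 of 19 alternatives, TMM and every left-out library among them, and was lost in the other two: with the totals of the plus and minus strands as library sizes, since 50.8% to 51.1% of all AP sites were on the plus strand, it was -0.28 (adjusted p = 0.0603), and with DESeq2, which called 0 genes, the ratio was still -0.34 (adjusted p = 0.781). SSBs of Dmd were near balance, with template shares of 37.7% to 58.8% (median 49.1%) and a log2 ratio of -0.05 (SE 0.079, adjusted p = 0.835).

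The template deficit was spread along both genes. In 10 equal bins of Dmd from 5′ to 3′, the template strand held 40.2% to 45.8% of AP sites in all but bin 5 (51.1%) and bin 7 (56.1%). In Utrn, it held 33.0% to 48.8% of SSBs in all bins but bin 6, which was evenly split. Whether the strand balance differed between the lesions was tested as an interaction over all 24 libraries, a comparison added after the strand results were seen. In Utrn, the template to non-template ratio was lower for SSBs than for AP sites by a log2 difference of -0.44 (SE 0.104, adjusted p = 0.00788), beside 291 of 25026 genes called (1.16%) and a median over genes of -0.16. It did not pass with TMM (-0.32, adjusted p = 0.159) or DESeq2 (-0.28, adjusted p = 0.239), which move that median to -0.05 and -0.01. In Dmd, the difference was 0.29 (SE 0.103, adjusted p = 0.152), and passed with TMM (0.41, adjusted p = 0.0242) and DESeq2 (0.46, adjusted p = 0.0151).

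**Figure D3:**
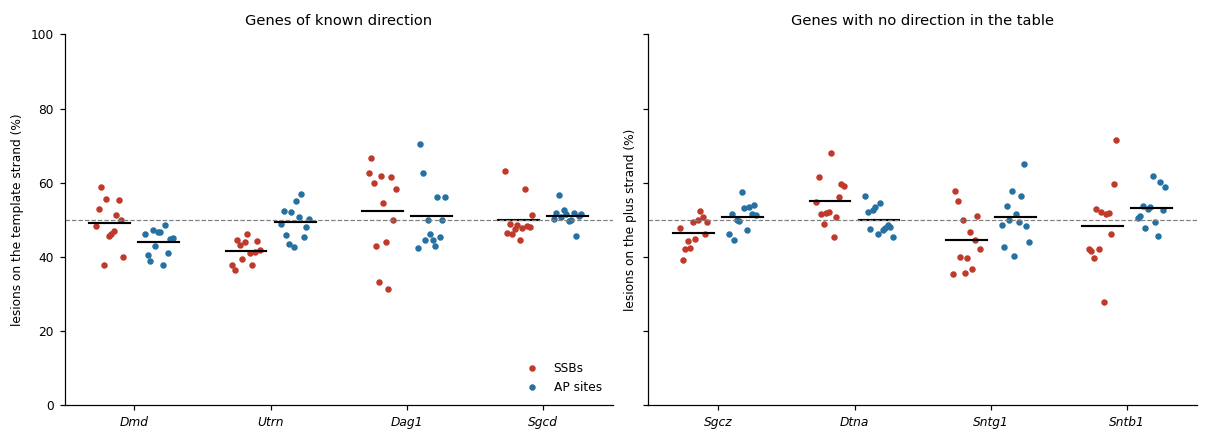
Percent of lesions per library on the template strand (left, 4 genes of known direction) or the plus strand (right, 4 without a listed direction). Red marks SSBs and blue AP sites, with black lines at means over 12 libraries and a dashed line at 50%. All SSB points of Utrn (36.4% to 46.2%) and all AP points of Dmd (37.8% to 48.6%) lie under the dashed line.

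The strands of the other members did not pass the test, in a comparison that called 1059 of 22946 genes (4.62%) for SSBs. For SSBs, the log2 ratio of template to non-template lesions was -0.03 (SE 0.069) in Sgcd and 0.08 (SE 0.240) in Dag1. The direction of the other members is not in the promoter annotation, so the log2 ratio of plus to minus strand was taken. In edgeR's quasi-likelihood test it was -0.34 (SE 0.115, adjusted p = 0.0590) in Sntg1 and 0.22 (SE 0.098, adjusted p = 0.2003) in Dtna. It was -0.14 (SE 0.084) in Sgcz and -0.06 (SE 0.114) in Sntb1. Sntg1 passed in 5 of 19 alternatives, among them without bone marrow replicate 1, PBMC replicate 2 or sperm replicate 1. Dtna passed with TMM in edgeR's quasi-likelihood test (0.36, adjusted p = 0.0200). TMM also moved the median over genes of known direction from -0.19 to -0.06. The part of that shift in the pass of Dtna was not tested. For AP sites, the values of these 6 genes, on the same scales, lay between 0.01 (Sntg1) and 0.17 (Sntb1). The strand balance of the members was not shown to differ between tissues: 0 of 22946 genes were called for SSBs and 0 of 26743 for AP sites, with 466 and 652 genes at an unadjusted p under 0.05 and 0 called by DESeq2 in both.

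Along the genes, lesions were unevenly placed. SSBs and AP sites had similar profiles over 10 equal bins in Dmd and Sgcd, and less so in the other members. In Dmd, bins 3 and 10 held 15.5% and 16.4% of the SSBs and 17.2% and 16.0% of the AP sites, and bins 4 and 5 only 7.52% and 7.02% of the SSBs. In Sgcd, bin 6 was the lowest for both lesions (6.99% and 6.08%) and bin 8 the highest (13.4% and 12.3%). In Sntb1, 14.9% and 15.4% lay in bin 1 by position and 4.42% and 3.93% in bin 2. These profiles of SSBs and AP sites had a Pearson r over the 10 bins of 0.94 in Dmd and Sgcd. It was 0.86 to 0.90 in Sgcz, Dtna, Sntg1 and Sntb1, 0.78 in Dag1 and 0.49 in Utrn, whose profile had the smallest range. Spearman's rho was 0.94 in Dmd, 0.91 in Sgcd, 0.78 in Sntb1 and 0.75 in Dtna. It was lower in Sgcz (0.72), Sntg1 (0.63), Utrn (0.47) and Dag1 (0.19). Both measures describe bins that share their base composition and mappability.

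**Figure D4:**
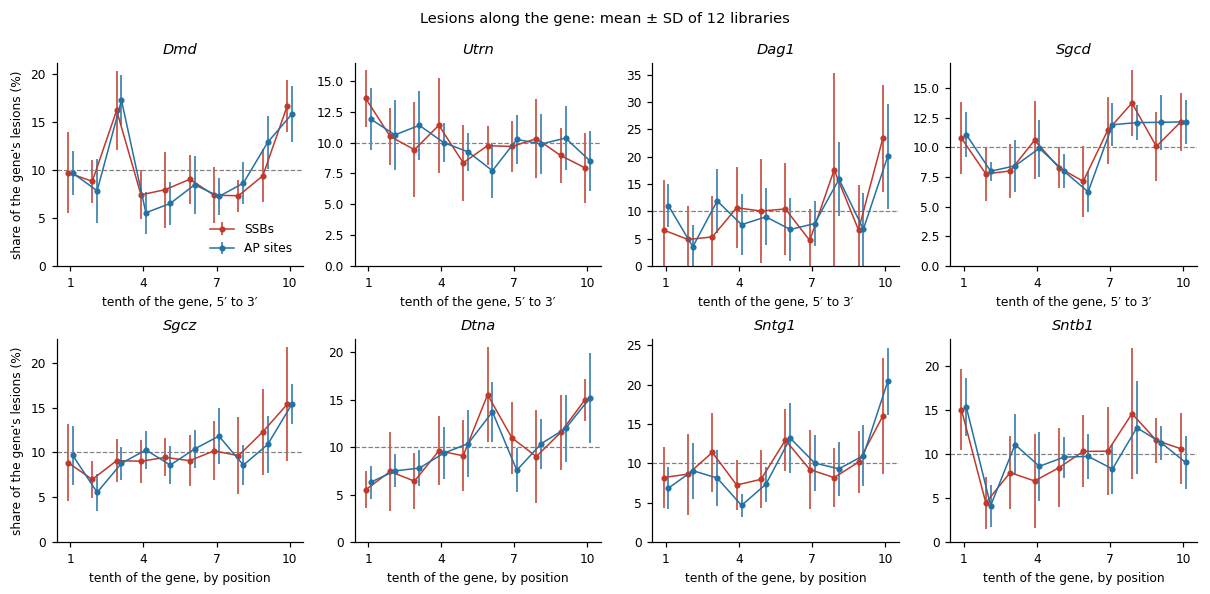
Share of a gene's lesions in each of 10 equal bins of its span (percent, mean ± SD over 12 libraries), red for SSBs and blue for AP sites, with a dashed line at the 10% of an even spread; bins run 5′ to 3′ in Dmd, Utrn, Dag1 and Sgcd and by position in the others. Both lesions of Dmd peak in bins 3 and 10, and those of Sntg1 and Dag1 in the last.

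Both sides of the midpoint of each gene were compared within libraries. Most members had the lesser density on the 5′ side or on the side of lower coordinates. The latter was used where no direction is given and may be either end of the gene. For SSBs, 5 of 8 members were called, beside 2544 of 22946 genes (11.1%): Dtna with a log2 ratio of lower to upper side of -0.56 (SE 0.0996), Sgcz with -0.39 (SE 0.085), Sntb1 with -0.41 (SE 0.115), Sgcd with a ratio of 5′ to 3′ side of -0.28 (SE 0.069) and Dag1 with -0.89 (SE 0.247). Their adjusted p in edgeR's quasi-likelihood fit lay between 2.32e-06 (Dtna) and 0.00787 (Sntb1), and DESeq2 called only Dtna. The call of Dag1 also needed heart replicate 2 (-0.56 and adjusted p = 0.213 without it). For AP sites, 7 of 8 were called, beside 6073 of 26743 genes (22.7%) with a median of -0.10. The shares over all genes for both lesions include genes with a mean of only 2 positions per library, fewer than the members held. Shares among genes with counts like those of the members were not computed. The lower side of Sntg1 held fewer AP sites (-0.81, SE 0.090, adjusted p = 3.64e-17), as did those of Dtna (-0.53, SE 0.078) and Sgcz (-0.40, SE 0.069). The 5′ side of Sgcd (-0.25, SE 0.052), of Dag1 (-0.54, SE 0.182) and of Dmd (-0.19, SE 0.064) held fewer, whereas in Utrn the 5′ side held more (0.19, SE 0.066, adjusted p = 0.0200). The calls of Dmd and Dag1 did not pass with TMM or DESeq2, and that of Sgcd not with DESeq2. Left-out libraries ended calls as well: that of Dmd without brain replicate 1, liver replicate 1, sperm replicate 1 or all sperm, that of Dag1 without bone marrow replicate 2, PBMC replicate 2 or sperm replicate 1, and that of Utrn without bone marrow replicate 2, brain replicate 1 or heart replicate 2. Whether these ratios differed between SSBs and AP sites was not tested.

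Compared with their flanks, a stretch of 50% of the gene length on either side, Dmd, Utrn and Dtna were denser in both lesions and Sgcz and Sntg1 sparser. For SSBs, the ratio of gene to flank density in Dmd had its lowest value at 0.972, its median at 1.41 and its highest at 1.70, above 1 in 11 of 12 libraries. The log2 ratio was 0.49 (SE 0.063) in Dmd, 0.52 (SE 0.064) in Utrn and 0.57 (SE 0.078) in Dtna, with adjusted p of 1.25e-11 or less in edgeR's quasi-likelihood fit. It was -0.77 (SE 0.073) in Sntg1, -0.37 (SE 0.059) in Sgcz and -0.43 (SE 0.155, adjusted p = 0.0240) in Dag1, the last not passing with DESeq2 (adjusted p = 0.108) or without bone marrow replicate 1, heart replicate 1 or liver replicate 2. Over all genes, 7196 of 28097 were called (25.6%), 17.1% as denser than the flanks and 8.50% as sparser, around a median of 0.14.

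For AP sites, the log2 ratio was 0.50 (SE 0.051) in Dmd, 0.53 (SE 0.052) in Utrn and 0.81 (SE 0.065) in Dtna, and -0.51 (SE 0.059) in Sntg1 and -0.32 (SE 0.048) in Sgcz, with adjusted p of 2.70e-10 or less. The background was 11367 of 31124 genes (36.5%), 25.7% denser and 10.8% sparser, around a median of 0.20. TMM moved these medians to 0.04 for both lesions, with Dmd then at 0.39 and 0.34, and kept these 5 members past the threshold in the same direction. Sgcd (0.09 for SSBs and 0.01 for AP sites) and Sntb1 (-0.06 and 0.09) were not called for either lesion, except that Sgcd passed as sparser in AP sites with TMM (-0.15). The log2 ratio of Dag1 for AP sites was -0.17 (SE 0.122), and passed with TMM (-0.32). The flanks may hold other genes and stretches to which reads do not map, and their part in these ratios was not tested.

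**Figure D5:**
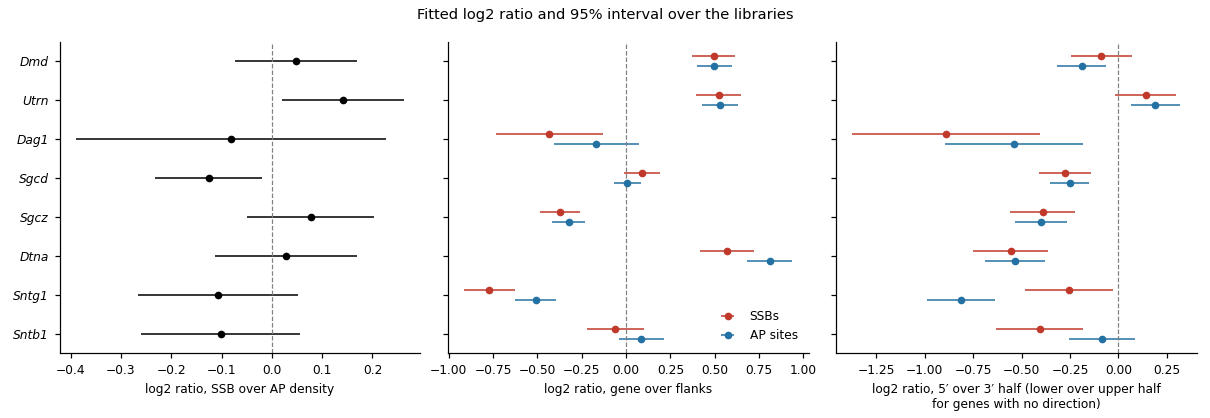
Fitted log2 ratios with 95% intervals over the libraries for the 8 genes: SSB over AP density (left, black), gene over flanks (middle) and 5′ over 3′ side, or lower over upper side where no direction is given (right), red for SSBs and blue for AP sites, with a dashed line at 0. In the middle panel Dmd (0.49 and 0.50), Utrn and Dtna lie to the right of 0 and Sntg1 and Sgcz to the left for both lesions.

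Lesions rarely fell on the same nucleotide in different libraries. Of the distinct nucleotides of a member, 0% (Sntb1) to 0.645% (Dag1) had an SSB in at least 2 libraries, and 0.240% (Dmd) to 2.08% (Sntg1) an AP site. The most libraries that shared a nucleotide were 3, and the highest count at a position was 2. In Dmd, 4 nucleotides carried both an SSB and an AP site in some library, and in Utrn 14, the most of any member.

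Pearson r of log2(LPKM + 0.01) was taken between Dmd and 232 other genes of at least 500 kb over the 12 SSB libraries. The highest values were those of Il1rapl2 (r = 0.69), also on chromosome X, Immp2l (r = 0.68), Ptprg (r = 0.60), Snhg14 (r = 0.58) and Gm20754 (r = 0.53). These are the top of 232 values over 12 libraries, and how high the top lies without any likeness to Dmd was not tested. The values rest on the SSB levels by tissue that the list was chosen on. LPKM was not scaled to chromosome X here, and the part of its low SSB share in sperm was not tested. Among members, the highest r in SSBs was that of Sgcd and Sgcz on the same scale (r = 0.71), and Dmd and Utrn had -0.19. In AP sites, Dmd went with Sgcd (r = 0.82) and Sgcz (r = 0.81). These values describe libraries that share depth, tissue and mice.

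Other genes of the complex and its surroundings were taken from 3 lists: 10 further complex genes, 11 ligands and partners, and 14 enzymes that glycosylate dystroglycan. None of these was called across tissues for either lesion. Between SSBs and AP sites, 1 was called: Plec, plectin, which links intermediate filaments to dystroglycan (log2 ratio 0.47, SE 0.104, adjusted p = 0.00575). The medians of this ratio were -0.05, 0.06 and -0.02 for the lists, -0.03 for the members and 0.00465 over all genes. Dtnb, a dystrobrevin and the longest of the further complex genes, had -0.04. Over all genes, 0.420% were called between SSBs and AP sites, and 0.125% and 0% across tissues for SSBs and AP sites.

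For the strand of SSBs, 0 of 10 further complex genes, 1 of 11 ligands and partners and 2 of 11 glycosylation enzymes tested were called. For that of AP sites none was, and the strand balance differed between the lesions in 1 of 13 glycosylation enzymes and in none of the other two lists. Dtnb was at a log2 ratio of template to non-template of -0.39 (SE 0.132, adjusted p = 0.0576) for SSBs. By sides of the midpoint, 2 of 10 further complex genes, 2 of 11 ligands and partners and 1 of 11 glycosylation enzymes were called for SSBs. In the first 2 lists these were Dtnb (5′ over 3′ side -0.49, SE 0.133), Sgce (lower over upper side -0.61, SE 0.221), Plec (0.57, SE 0.141) and the ankyrin gene Ank3 (-0.23, SE 0.075). For AP sites, 2 of 10, 4 of 11 and 4 of 13 were called. They included Dtnb (-0.60), Drp2 (-0.68), Plec (0.95), Cav3 (1.64) and Ank3 (-0.27), and among the glycosylation enzymes Pomt2 (-0.95) and Rxylt1 (2.87). The shares called over all genes were 4.62% and 0.0897% for the strands of SSBs and AP sites and 1.16% for strand by lesion. By sides of the midpoint they were 11.1% for SSBs and 22.7% for AP sites.

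Against their flanks, the ligands and partners were mostly denser: 7 of 11 passed as denser and 1 as sparser for SSBs, 9 and 1 for AP sites, with medians of 0.67 and 0.65 against 0.14 and 0.20 over all genes. Among them were agrin (Agrn, 1.74 and 1.91) and perlecan (Hspg2, 1.056 and 0.77), both of which bind dystroglycan. Of the further complex genes, 2 were denser and 3 sparser for SSBs, and 4 and 3 for AP sites, among them Dtnb (-0.49 and -0.29), the syntrophin Sntb2 (-0.68 and -0.86), Drp2 (0.95 and 1.16) and, for AP sites, Sgca (1.41). Of the glycosylation enzymes, 3 were denser and 1 sparser for SSBs and 5 and 0 for AP sites. These included Pomgnt2 (0.95 for SSBs) and B3galnt2 (0.51 for AP sites). Over all genes, 17.1% passed as denser and 8.50% as sparser for SSBs, and 25.7% and 10.8% for AP sites.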

How the data were processed

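SSBs and AP sites were mapped by their 3′ ends with SSiNGLe and SSiNGLe-AP, and the authors deposited, for each of the 24 libraries, the genomic positions with strand and a count per position, without normalization. The submitters' processing notes name mm10, GRCm38 and, for RNA, RSEM 1.2.28; the RNA samples were not analysed here. Each position was counted once whatever its deposited count (summed counts were an alternative) and assigned to every gene whose RefSeq span (GRCm38.p6) held it. Per library, 225011 to 1041983 SSB and 460719 to 963258 AP positions stood behind these values. LPKM was lesions divided by gene length in bases and library positions, times 1e+09.

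The members, gene lists and tests were chosen with earlier results of these data known. Genes with positions in at least 20% of libraries (tissues, SSBs against AP sites) or a mean of at least 2 per library (strand, sides of the midpoint, flanks) were fitted across all genes with edgeR's quasi-likelihood test (edgeR 4.0.16, limma 3.58.1, R 4.3.3), and p-values were adjusted by Benjamini-Hochberg over all genes tested, with 0.05 as the threshold. Tissues were scaled by TMM, and the other comparisons by library totals with the sample or library as a block. DESeq2 1.42.0, TMM or none, other filters, thinning, summed counts, left-out tissues and left-out libraries were alternatives. The comparison of strands between the lesions and the use of plus and minus totals as library sizes were chosen after seeing the data. The rest was done in Python 3.11.15 with scipy 1.17.1, pandas 2.3.3, matplotlib 3.10.9 and numpy 2.4.6, and the fits were tested on simulated data.

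Of the listed related genes, those called in a comparison (at most 3 per comparison and list, by smallest p) and the longest of each list are named, and for likeness to Dmd the 5 genes of at least 500 kb with the highest r. Results of some listed genes that this rule would name are not reported here. Samples were grouped by the tissue and assay in their labels. The labels do not say that a replicate number marks 1 mouse across tissues. Same-numbered libraries did not deviate together (r from -0.0206 to 0.0282 for SSBs and -0.102 to 0.0708 for AP sites over 15 pairs of tissues, 0 above 0.1). SSB and AP libraries of the same sample did not either (r from -0.00503 to 0.0217 over 6 pairs). The check thus missed a known pairing and cannot tell whether equal numbers mark 1 mouse. Samples of 2 mice stand behind all tissues, so p-values measure the spread between these samples. The Poisson intervals of LPKM cover counting error only, and the intervals of log2 ratios come from the fits and include the spread between libraries.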

Additional observations from a re-analysis of the deposited data

Results flagged for a closer look

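The strand balance of Utrn differed between the lesions by a test of the difference itself: the log2 ratio of template to non-template positions was lower for SSBs than for AP sites by -0.435 (SE 0.104, adjusted p = 0.00788 with edgeR's quasi-likelihood test). It passed in 17 of 19 alternatives, with values from -0.49 to -0.28 and adjusted p from 0.00300 to 0.239. The share on the template strand was 36.4% to 46.2% for SSBs and 42.6% to 57.0% for AP sites, so the ranges of the libraries overlap. It passed in each of the 12 fits that left out 1 sample. The alternatives in which it missed the threshold were TMM and DESeq2. The median of this difference over all genes was -0.16, and TMM and DESeq2 moved it to -0.05 and -0.01. With plus and minus totals as library sizes that median stayed at -0.16. The count of alternatives passed thus does not separate Utrn from this shift of all genes. The comparison was added after the strand results were seen.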

How the results depend on the processing

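Calls of members in the tested comparisons that changed are given beside the results. For SSBs across tissues the 48 genes became 15 without TMM, 4 with DESeq2, 16 with summed counts, 12 when thinned, 3 without bone marrow and 7 without sperm. For SSBs against AP sites the 173 became 307 with TMM, 42 with DESeq2, 10 when thinned and 68 without bone marrow. For the strand of SSBs the 1059 became 507 with TMM, 160 with DESeq2, 704 without a filter and 691 without sperm. For the strand of AP sites the 24 became 0 with DESeq2, 50 with a mean of at least 10, 14 without a filter, 11 with positions of 1 library only, 12 without sperm and 5 with plus and minus totals. For strand by lesion the 291 became 136 with TMM, 104 with DESeq2, 525 with a mean of at least 10, 173 without a filter and 161 without sperm. For sides of the midpoint, SSBs went from 2544 to 1087 with DESeq2 and 1657 with a mean of at least 10, and AP sites from 6073 to 3397 with DESeq2. For flanks, SSBs went from 7196 to 4696 with DESeq2. The cause was not tested. Sgcd against its flanks reversed for AP sites with TMM (-0.146, adjusted p = 0.00155 with edgeR), where the median of all genes also moved from 0.20 to 0.04.

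Leaving out each library in turn gave 4 to 65 genes for SSBs across tissues, 0 to 2 for AP sites across tissues (2 without liver replicate 2), 85 to 197 for SSBs against AP sites, 741 to 1007 and 6 to 23 for the strands of SSBs and AP sites, 181 to 284 for strand by lesion, 1811 to 2420 and 5385 to 5926 for sides of the midpoint, 6044 to 7056 and 10390 to 11124 for flanks, and p from 0.105 to 0.332 (exact permutation test) for the share of Dmd in X-linked AP sites. For SSBs against AP sites and for strand by lesion, the SSB and AP libraries of a sample were left out together. With the replicate number as a replicate block, 59 genes were called for SSBs across tissues and 0 for AP sites. Without the block of samples, SSBs against AP sites called 217. These are the comparisons fitted with and without such a block, and no call of a member for AP sites across tissues or for SSBs against AP sites changed. Dag1, with 6 to 34 SSBs per library, is limited by depth.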
